A study of Mus musculus with 8 samples.

Results

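The genes described here are 10 immediate early genes outside the FOS and JUN families: the transcription factors Egr1, Egr2, Egr3, Nr4a1 and Klf6, the nuclear protein Ier2, the mRNA decay and antiproliferative factors Zfp36 and Btg2, the MAP kinase phosphatase Dusp1 and the survival factor Ier3. They were taken by symbol, and every probe set that the array annotation assigns to a single one of them was used, which gave 17 of the 45037 probe sets tested and 10 of 18193 genes. The series placed doxycycline-fed Runx1 transgenic mice beside wild-type mice at rest in the hair cycle, to ask how a high level of the transcription factor Runx1 changes hair follicle stem cells. Expression was measured on 8 Affymetrix arrays, 2 per group, each from sorted skin cells positive for a keratin 15-GFP reporter and for α6-integrin. The 4 groups were Runx1 iTG cells without surface CD34, which the labels call hair germ; WT cells sorted the same way; Runx1 iTG cells with surface CD34, called bulge; and WT bulge cells.

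All mice, WT included, had received doxycycline in food at 1 g per kg for 1 day, which the labels describe as repressing an H2BGFP reporter. The transgenic mice are described as Tet-on for Runx1; the promoter that drives the transgene, and whether animals were pooled, are not given in the sources used here. Mice were at postnatal day 20, except replicate 2 of both Runx1 iTG groups, which was at day 21. In every group Y-linked and Xist probe sets placed replicate 1 as male and replicate 2 as female, so the replicates of a group also differ in sex, and in the transgenic groups in age. Replicates are labelled biological, and precision is limited by there being 2 arrays in a group. In bulk samples, more RNA per cell and more cells of a type cannot be told apart.

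Immediate early genes are transcribed within minutes of a stimulus, such as a growth factor, stress or cell dissociation, without a need for new protein, and most of their mRNAs are short-lived. Serum response factor with ternary complex factors at CArG boxes, and CREB at cyclic AMP response elements, are the best known routes to their promoters, downstream of the MAP kinases. Several members then feed back: the Dusp1 protein removes phosphate from MAP kinases, and the Zfp36 protein, tristetraprolin, binds AU-rich elements and recruits the CCR4-NOT deadenylase to early mRNAs.

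The sorted populations were checked against defining markers. The bulge marker Cd34 averaged 3.38 in Runx1 iTG and 28.5 in WT CD34-negative cells, against 6749 in Runx1 iTG and 9144 in WT bulge cells, on a signal scale whose background level is 31.1, so that both CD34-negative means lay below background. The listed hair germ markers went against the label hair germ. All 6 (Cdh3, Lgr5, Lef1, Gli1, Fgf18 and Bmp6) were lower in CD34-negative than in bulge cells when both genotypes were averaged. All 6 passed limma's test. Their summed signal was 1092 to 1427 in Runx1 iTG and 1194 to 2111 in WT CD34-negative cells, against 11473 to 12969 in Runx1 iTG and 15889.5 to 17485 in WT bulge cells. The largest part of the bulge sums was Lgr5, which averaged 7256 in Runx1 iTG and 9215 in WT bulge cells. Lgr5 is also on the list of bulge markers used here, so its fall does not bear on the label. Of 6 upper follicle and sebaceous gland markers, 5 rose in the CD34-negative cells and 1 fell. The population is therefore called CD34-negative, after its sort. In Runx1 iTG cells the brightest Runx1 probe set read 12107 and 12882 in CD34-negative and 19461 and 13699 in bulge cells, against 495 and 489 in WT CD34-negative and 658 and 904 in WT bulge cells. Of the 6 Runx1 probe sets, 2 rose in CD34-negative cells (4.67 and 2.35), while the other 4 read lower on both Runx1 iTG arrays than on both WT arrays, with log2 differences of −1.43 to −2.77, without passing (adjusted p = 0.298 to 0.71). In bulge cells 1 rose (4.40), a second differed by 2.17 (adjusted p = 0.0842) and the other 4 lay between −0.40 and 0.21. Which transcripts each probe set detects was not analysed here.

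All 10 genes were above background on all 8 arrays by their brightest probe set, and all 10 had a mean signal above the median of all probe sets, 141.8. Signals are the deposited intensities scaled to a common 75th percentile, and a probe set's signal is not set against another gene's. The plot of signals by group shows 2 kinds of pattern: Egr1, Egr2, Egr3 and Ier2 were higher on every CD34-negative array than on every bulge array, whereas Klf6, Dusp1 and Ier3 had their highest array in bulge cells.

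**Figure D1:**
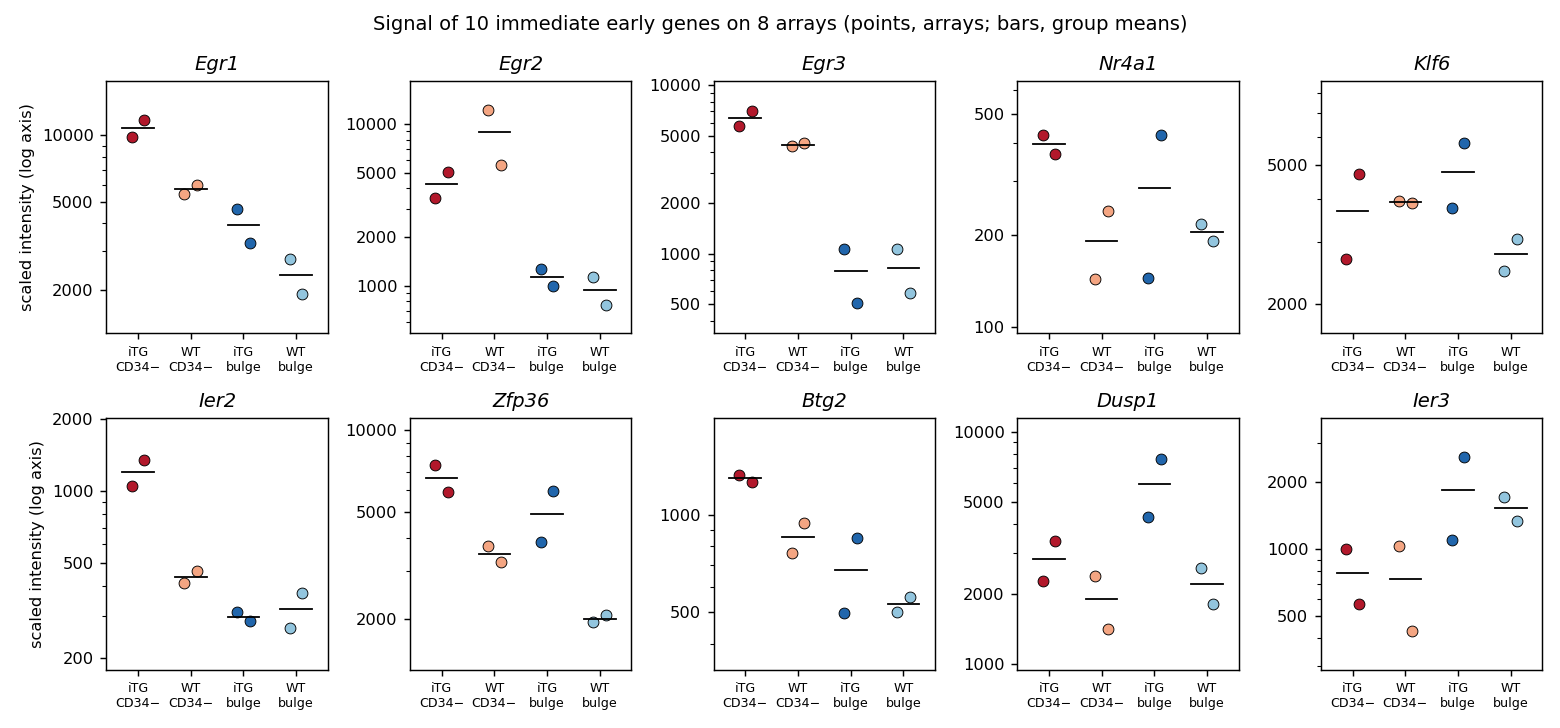
Scaled intensity (log axis) of the brightest probe set of each of the 10 genes on each array, by group; points are arrays and bars are group means of 2 arrays. Egr1, Egr2, Egr3 and Ier2 lie higher on all 4 CD34-negative arrays than on all 4 bulge arrays, and Egr1 and Zfp36 lie higher on every Runx1 iTG array than on every WT array of the same population.

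Promoters were read for the 7 members that the RefSeq table holds (GRCm38.p6), over the 250 bases before the transcription start. On both strands they were searched for the CArG box, which serum response factor binds, the cyclic AMP response element TGACGTCA, the AP-1 site TGANTCA, the EGR site GCGGGGGCG and the RUNX site TGTGGT. A gene was counted when any of its windows held a match. The CArG box was in 2 of the 7, Egr2 and Zfp36, and in 1.62% of 27018 genes with windows of this length. The cyclic AMP response element was in 2, Btg2 and Dusp1, and in 1.77% of genes. The EGR site was in 2, Zfp36 and Nr4a1, and in 2.93% of genes. Neither the AP-1 site (7.82% of genes) nor the RUNX site (15.9% of genes) was in a window of these 7 members. A match is a description of the letters, and no match says nothing of binding.

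The 4 windows given here are shown because they carry these matches for genes whose values the results turn on; capitals mark the matched letters, read 5′ to 3′ on the gene's strand. The Egr2 window (chr10:67537619-67537868, plus strand), 1 of 5 for that gene, holds a CArG box 72 bases before the start. The Zfp36 window (chr7:28379229-28379478, minus strand) holds an EGR site 105 and a CArG box 58 bases before the start. The Btg2 window (chr1:134079156-134079405, minus strand) and the Dusp1 window (chr17:26508473-26508722, minus strand) hold a cyclic AMP response element 166 and 143 bases before the start.
Egr2: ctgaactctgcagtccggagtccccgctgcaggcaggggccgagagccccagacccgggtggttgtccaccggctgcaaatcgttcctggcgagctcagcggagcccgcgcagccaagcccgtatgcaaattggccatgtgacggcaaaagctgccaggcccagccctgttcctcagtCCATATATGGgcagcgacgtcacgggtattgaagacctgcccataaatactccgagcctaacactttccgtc
Zfp36: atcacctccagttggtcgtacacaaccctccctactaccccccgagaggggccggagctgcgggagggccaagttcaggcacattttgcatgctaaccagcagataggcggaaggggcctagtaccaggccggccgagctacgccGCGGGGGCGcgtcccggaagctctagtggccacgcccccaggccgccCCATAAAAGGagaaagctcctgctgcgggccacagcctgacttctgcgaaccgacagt
Btg2: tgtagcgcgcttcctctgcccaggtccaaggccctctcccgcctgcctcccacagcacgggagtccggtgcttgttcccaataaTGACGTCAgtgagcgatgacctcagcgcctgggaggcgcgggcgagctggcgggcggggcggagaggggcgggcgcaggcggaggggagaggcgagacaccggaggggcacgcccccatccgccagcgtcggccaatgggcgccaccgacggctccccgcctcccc
Dusp1: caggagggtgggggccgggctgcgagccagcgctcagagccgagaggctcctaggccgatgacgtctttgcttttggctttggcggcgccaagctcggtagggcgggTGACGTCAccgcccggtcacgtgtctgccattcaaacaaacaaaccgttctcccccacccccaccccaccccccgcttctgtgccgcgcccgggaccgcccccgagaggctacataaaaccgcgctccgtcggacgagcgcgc

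Averaged over both genotypes, 6 of the 10 genes rose in CD34-negative against bulge cells and 0 fell, where 8.65% of all genes rose and 8.56% fell. These calls are by limma's moderated test with Benjamini-Hochberg adjustment over all probe sets. Ier3 and Dusp1 lay lower at an unadjusted p under 0.05, a threshold at which the share of all genes was not counted here. The 6 that rose were Egr3, Egr2, Egr1, Ier2, Btg2 and Zfp36. The calls of Ier2, Btg2 and Zfp36 were lost in some alternatives, and Ier3 passed, lower in CD34-negative cells, in 5 of the 10 other alternatives run for the average, as given with each gene. The median difference of the 10 was 0.74 on the log2 scale, against −0.092 over all genes. The number and median describe the 10 genes and are no test of them as a group.

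Egr2, a zinc finger transcription factor of the early growth response family, read 3495 and 5048 in Runx1 iTG CD34-negative cells, against 1277 and 991 in Runx1 iTG bulge cells. In WT mice it read 12272 and 5542 in CD34-negative cells, against 1129 and 765 in bulge cells. Every CD34-negative array was higher than every bulge array, and the WT CD34-negative pair was spread more widely than the Runx1 iTG pair. The log2 difference was 1.90 in Runx1 iTG (SE 0.38, 3.73-fold, adjusted p = 0.0164) and 3.15 in WT (SE 0.38, 8.87-fold, adjusted p = 0.00168). The WT call held when any 1 array was left out; the Runx1 iTG call did not, with adjusted p = 0.0648 and 0.129 without bulge replicate 1 or 2 and 0.073 and 0.117 without CD34-negative replicate 1 or 2 of that genotype.

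Egr3, a relative that binds the same GC-rich site, read 5729.5 and 7063 in Runx1 iTG CD34-negative cells, against 1071 and 506 in Runx1 iTG bulge cells. In WT mice it read 4340.0 and 4509 in CD34-negative cells, against 1068 and 583 in bulge cells. The populations were far apart in both genotypes, and in bulge cells replicate 1 was the higher of each pair. The difference was 3.11 in Runx1 iTG (SE 0.38, 8.64-fold, adjusted p = 0.00162) and 2.49 in WT (SE 0.38, 5.6-fold, adjusted p = 0.00601). The Runx1 iTG call held without any 1 array. The WT call was lost without WT bulge replicate 2 (adjusted p = 0.0929) and without WT CD34-negative replicate 1 or 2 (adjusted p = 0.0571 and 0.0797).

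Egr1, the founding member of the family and a common readout of growth factor signalling, read 9814 and 11736 in Runx1 iTG CD34-negative cells, against 4627 and 3274 in Runx1 iTG bulge cells. In WT mice it read 5419 and 5990.0 in CD34-negative cells, against 2767 and 1919.6 in bulge cells. No array of one population fell in the range of the other. The difference was 1.46 in Runx1 iTG (SE 0.26, 2.76-fold, adjusted p = 0.00945) and 1.31 in WT (SE 0.26, 2.47-fold, adjusted p = 0.022). Without the intensity trend limma's call was lost in both genotypes (adjusted p = 0.164 in WT). With only the groups compared in the fit it was lost in both as well (adjusted p = 0.0797 in WT). The call was lost without Runx1 iTG bulge replicate 2 or CD34-negative replicate 1 or 2 in that genotype (adjusted p = 0.0853, 0.0588 and 0.0723), and in WT without the same arrays of that genotype (adjusted p = 0.184, 0.102 and 0.176).

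Ier2, a nuclear protein with roles in cell motility and transcription, read 1045 and 1352 in Runx1 iTG CD34-negative cells, against 309 and 284 in Runx1 iTG bulge cells. In WT mice it read 411 and 461 in CD34-negative cells, against 267 and 374 in bulge cells. The Runx1 iTG populations stood well apart, while the WT populations were close to each other without overlapping. Ier2 rose in Runx1 iTG CD34-negative cells (2.0, SE 0.31, 4.01-fold, adjusted p = 0.00464), also when any 1 array was left out, and differed by 0.46 in WT (95% interval −0.22 to 1.15, adjusted p = 0.487).

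Averaged over genotype, the differences of these 4 genes were 2.80 for Egr3 (SE 0.27, adjusted p = 0.00016), 2.52 for Egr2 (SE 0.27, adjusted p = 0.000288), 1.38 for Egr1 (SE 0.18, adjusted p = 0.000996) and 1.23 for Ier2 (SE 0.22, adjusted p = 0.00465). All 4 calls held without any 1 array, and that of Ier2 was lost with day 20 arrays alone (adjusted p = 0.0861). Having all 4 CD34-negative arrays above all 4 bulge arrays was shared by 10.8% of all genes. Within a genotype, 3 of the 10 rose in WT (Egr1, Egr2 and Egr3), where 2.78% of all genes rose, and 4 in Runx1 iTG (the same 3 and Ier2), where 4.08% rose. Both CD34-negative arrays lay above both bulge arrays for 7 of the 10 genes in WT, where 23.2% of all genes did, and below them for 1, Ier3, where 28.9% did. In Runx1 iTG they lay above for 5, where 24.1% of all genes did, and below for 2, Dusp1 and Ier3, where 27.8% did. With arrays of day 20 alone, which leaves 1 array in each Runx1 iTG group, 0 of the 4 passed in Runx1 iTG.

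Zfp36 and Btg2 rose in the average by less. Zfp36 read 7421 and 5905 in Runx1 iTG CD34-negative cells, against 3859.6 and 5941 in Runx1 iTG bulge cells, and 3719 and 3261 in WT CD34-negative cells, against 1947 and 2062 in WT bulge cells. The WT populations did not overlap, whereas Runx1 iTG bulge replicate 2 lay above one of the Runx1 iTG CD34-negative arrays. Its averaged difference was 0.63 (SE 0.18, adjusted p = 0.0433), with adjusted p = 0.0263 to 0.155 over the fits that leave out 1 array, of which 1 passed: the one without Runx1 iTG bulge replicate 2. The call was also lost with quantile normalization (0.50, adjusted p = 0.138), with the deposited values left unscaled (adjusted p = 0.0655), without the intensity trend (adjusted p = 0.182), with day 20 arrays alone (adjusted p = 0.0535) and with sex, which is also the replicate number, as a block (adjusted p = 0.0566).

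Btg2, an antiproliferative partner of the CCR4-NOT deadenylase, read 1333 and 1269 in Runx1 iTG CD34-negative cells, against 499 and 851 in Runx1 iTG bulge cells, and 760.5 and 948 in WT CD34-negative cells, against 502 and 557 in WT bulge cells. The populations did not overlap in either genotype, though Runx1 iTG bulge replicate 2 lay inside the range of the WT CD34-negative arrays. Its averaged difference was 0.84 (SE 0.21, adjusted p = 0.0281). Without 1 array the adjusted p was 0.0169 to 0.111, and 1 of the 8 such fits passed, again the one without Runx1 iTG bulge replicate 2. It was lost too without the intensity trend (adjusted p = 0.114) and with day 20 arrays alone (adjusted p = 0.0625).

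The other 4 genes did not pass, Ier3 by a narrow margin. Ier3, an inhibitor of apoptosis, read 1005 and 568 in Runx1 iTG CD34-negative cells, against 1107 and 2603 in Runx1 iTG bulge cells, and 1036 and 432 in WT CD34-negative cells, against 1723 and 1343 in WT bulge cells. In each genotype both CD34-negative arrays lay below both bulge arrays. The averaged difference was −1.18 (SE 0.35, adjusted p = 0.0537), and it ran from −1.49 to −0.86 over the fits without 1 array, with adjusted p = 0.034 to 0.2; it passed without WT CD34-negative replicate 1 (adjusted p = 0.0372) and without Runx1 iTG bulge replicate 1 (adjusted p = 0.034). It also passed, always lower in CD34-negative cells, with the deposited values left unscaled (adjusted p = 0.0473), with 50 added before the log (adjusted p = 0.0442), with only probe sets at or above the median signal (adjusted p = 0.0242), with 1 row per gene (adjusted p = 0.0445) and with the mean of a gene's probe sets (adjusted p = 0.0493).

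Dusp1 read 2267 and 3375 in Runx1 iTG CD34-negative cells, against 4282 and 7655 in Runx1 iTG bulge cells, and 2399.7 and 1418 in WT CD34-negative cells, against 2602 and 1813 in WT bulge cells. The bulge arrays were the higher ones in Runx1 iTG mice, and the WT populations overlapped. The difference was −1.05 in Runx1 iTG (95% interval −1.87 to −0.23, adjusted p = 0.133) and −0.24 in WT (95% interval −1.05 to 0.58, adjusted p = 0.802).

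Nr4a1, an orphan nuclear receptor, overlapped between populations in both genotypes, and Klf6, a Krüppel-like factor, in Runx1 iTG mice. Nr4a1 read 427 and 368 in Runx1 iTG CD34-negative cells, against 145 and 426 in Runx1 iTG bulge cells, and 143 and 239 in WT CD34-negative cells, against 218 and 191 in WT bulge cells. Klf6 read 2693 and 4688 in Runx1 iTG CD34-negative cells, against 3761 and 5763 in Runx1 iTG bulge cells, and 3942 and 3886 in WT CD34-negative cells, against 2484 and 3065 in WT bulge cells. In WT mice both Klf6 arrays of CD34-negative cells were above both of bulge cells, and in Runx1 iTG mice the ranges crossed. Averaged differences were 0.27 for Nr4a1 (95% interval −0.56 to 1.09) and 0.057 for Klf6 (95% interval −0.43 to 0.54), the second of which turned to −0.10 under quantile normalization.

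**Figure D2:**
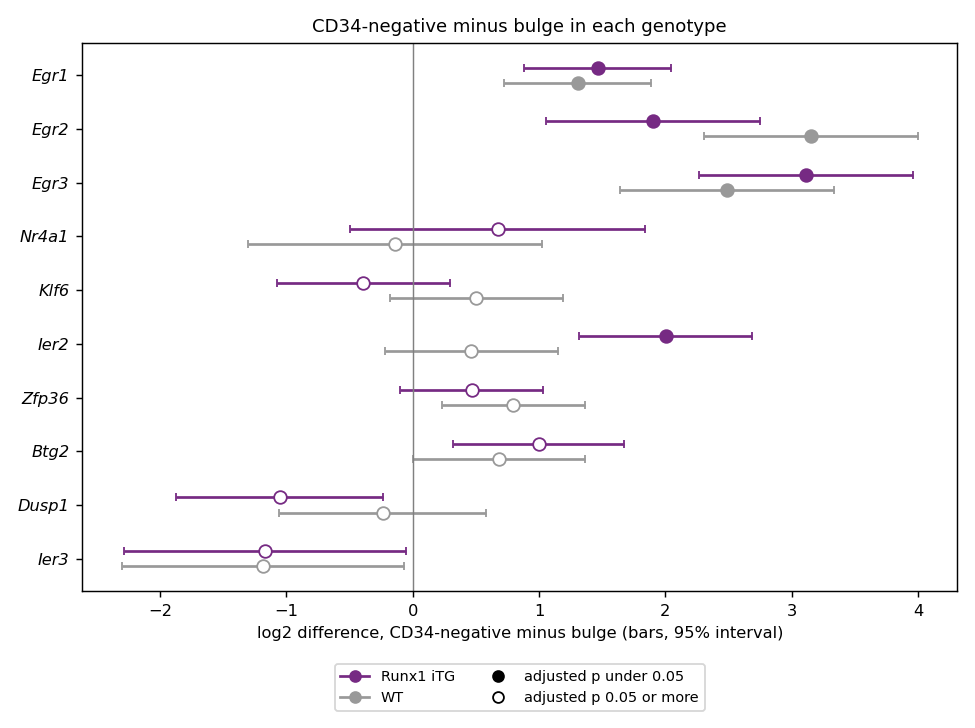
Log2 difference between CD34-negative and bulge cells for each gene in Runx1 iTG and in WT mice (CD34-negative minus bulge; bars, 95% interval of the fit; filled points, adjusted p under 0.05). Egr1, Egr2 and Egr3 are filled in both genotypes and Ier2 in Runx1 iTG alone, while Ier3 and Dusp1 lie below 0 in both.

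Markers of other skin cells also moved between the populations. The 6 upper follicle and sebaceous gland markers summed to 55449 to 62768 in Runx1 iTG and 62003 to 64483 in WT CD34-negative cells, against 18406 to 19785 in Runx1 iTG and 14544 to 16761 in WT bulge cells. The 6 fibroblast markers summed to 351 to 699.8 and 249.6 to 344 in Runx1 iTG and WT CD34-negative cells, against 9072 to 9162 and 4834 to 5713 in Runx1 iTG and WT bulge cells. Most of each bulge sum was Col1a1 and Col1a2, which averaged 7059 and 1882 in Runx1 iTG and 3928 and 1201 in WT bulge cells. Group means of the rest lay between 4.73 and 78.9, and Pdgfra was the 1 marker higher in CD34-negative cells. The 6 melanocyte markers summed to 405 to 1042 and 857 to 1003 in Runx1 iTG and WT CD34-negative cells, against 2074 to 4494 and 2189.7 to 3592 in Runx1 iTG and WT bulge cells. Of those 6, 3 and 4 were below background on both arrays of Runx1 iTG and of WT CD34-negative cells, and 2 and 1 on both of Runx1 iTG and of WT bulge cells. Most of each melanocyte sum was Mitf, which averaged 621 in Runx1 iTG and 752 in WT CD34-negative cells, against 3082 in Runx1 iTG and 2525 in WT bulge cells; the group means of the other 5 lay between 3.48 and 195.8. The 6 suprabasal epidermal markers were lower in CD34-negative cells (6 of 6 fell). The part of these cell types in the differences of the 10 genes was not tested.

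Between genotypes no gene of the 10 passed. In bulge cells 0 of the 10 genes passed limma's test of Runx1 iTG against WT, where 0.011% of all genes passed, and 4 had an unadjusted p under 0.05, all higher, where 3.33% of all genes were: Zfp36, Dusp1, Egr1 and Klf6. In CD34-negative cells 0 passed, where 0.011% of genes did, and 4 had an unadjusted p under 0.05, where 6.91% did: Ier2, Zfp36 and Egr1 were higher and Egr2 was lower in Runx1 iTG. Averaged over both populations 0 passed, where 0.044% of genes did, and 4 had an unadjusted p under 0.05, all higher, where 4.48% were: Zfp36, Egr1, Dusp1 and Ier2. The median difference of the 10 genes was 0.29 in bulge cells, 0.60 in CD34-negative cells and 0.57 averaged, against 0.023, 0.030 and 0.028 over all genes.

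Zfp36 had the smallest p of the 10 in the average. As given above, its 4 Runx1 iTG arrays lay between 3859.6 and 7421, and its 4 WT arrays between 1947 and 3719, so the genotypes did not overlap over all 8 arrays. Runx1 iTG minus WT was 1.09 averaged (SE 0.18, 2.13-fold, adjusted p = 0.112), 0.93 in CD34-negative cells (SE 0.25, adjusted p = 0.524) and 1.26 in bulge cells (SE 0.25, adjusted p = 0.445). Without 1 array the averaged difference was 0.94 to 1.25. When the fit was limited to probe sets at or above the median signal, its averaged adjusted p was 0.0353.

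Egr1 was the other gene with every Runx1 iTG array above every WT array in each population, a pattern of 4.78% of all genes. The difference was 0.91 in CD34-negative cells (SE 0.26, 1.88-fold, adjusted p = 0.55), 0.76 in bulge cells (SE 0.26, 1.69-fold, adjusted p = 0.793) and 0.83 averaged (adjusted p = 0.292). Over the fits without 1 array the averaged difference was 0.70 to 0.97.

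Dusp1 was 1.40 higher on the log2 scale in Runx1 iTG than in WT bulge cells (SE 0.37, 2.64-fold, adjusted p = 0.713), with both Runx1 iTG arrays above both WT arrays. In CD34-negative cells the arrays of the genotypes overlapped and the difference was 0.58 (SE 0.37, adjusted p = 0.897). The Runx1 iTG bulge array of replicate 2 was the highest of all 8, and without it the bulge difference was 0.98.

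Ier2 and Egr2 lay on opposite sides of 0 in CD34-negative cells. Both Runx1 iTG arrays of Ier2 lay above both WT arrays there, by 1.45 (SE 0.31, 2.73-fold, adjusted p = 0.321), and in bulge cells the genotypes overlapped at −0.093 (95% interval −0.78 to 0.59). Egr2 ran the other way in CD34-negative cells, where both Runx1 iTG arrays lay below both WT arrays (−0.97, SE 0.38, adjusted p = 0.735). That gap was smaller without WT replicate 1, at −0.40, against −1.55 without WT replicate 2. In bulge cells Egr2 overlapped (0.27, 95% interval −0.57 to 1.12).

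Among the rest, Klf6 was 0.75 higher in Runx1 iTG than in WT bulge cells (SE 0.31, adjusted p = 0.842) with no overlap, and −0.14 in CD34-negative cells (95% interval −0.82 to 0.55). Nr4a1, Egr3 and Btg2 had both Runx1 iTG arrays above both WT arrays in CD34-negative cells, with differences of 1.10 (95% interval −0.067 to 2.26), 0.52 (95% interval −0.32 to 1.37) and 0.62 (95% interval −0.063 to 1.29). In bulge cells the same 3 genes overlapped. In all, 6 of the 10 genes had every Runx1 iTG array above every WT array in CD34-negative cells, where 20.1% of all genes did, and 1 had every one below, where 15.9% did; in bulge cells 4 lay above, where 17.4% did. Ier3 overlapped in both populations, with intervals of −0.94 to 1.29 in CD34-negative and −0.96 to 1.27 in bulge cells.

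**Figure D3:**
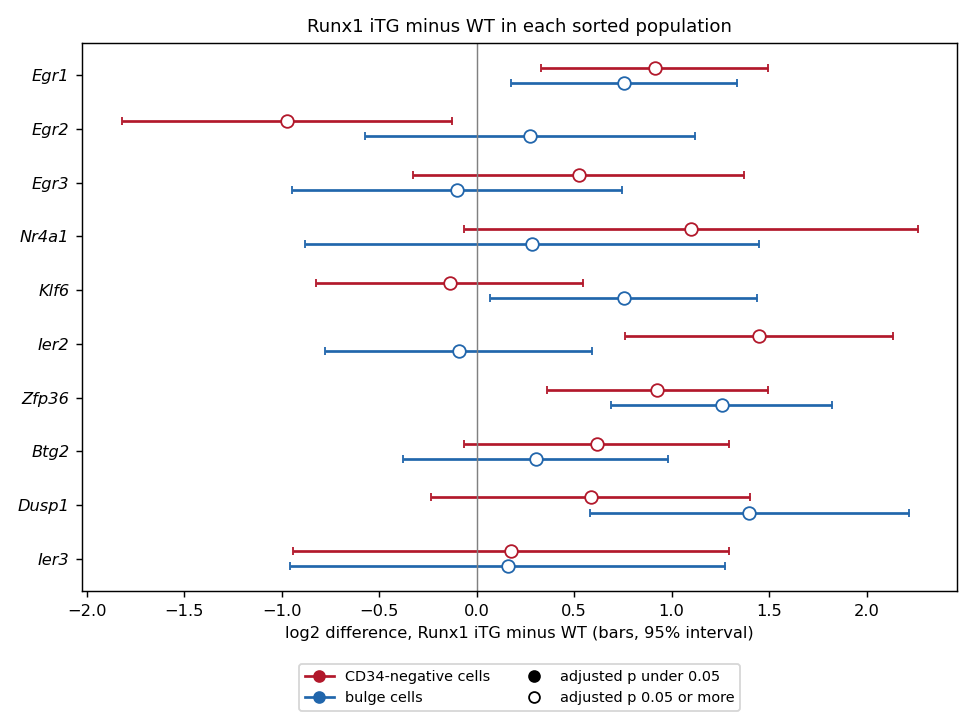
Log2 difference between Runx1 iTG and WT cells for each gene in CD34-negative and in bulge cells (Runx1 iTG minus WT; bars, 95% interval of the fit; open points, adjusted p of 0.05 or more). All points are open; the intervals of Egr1 and Zfp36 lie above 0 in both populations, and Ier2 and Egr2 differ most between the populations.

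Runx1 iTG bulge replicate 2, a day 21 female sample, read the highest of the 4 bulge arrays for Zfp36, Klf6, Dusp1, Btg2, Nr4a1 and Ier3 and the lowest for Egr3. Without it the median bulge difference of the 10 genes was 0.44, and without Runx1 iTG bulge replicate 1 it was 0.73. Nr4a1 read 426.1 on that array, against 145.2 in replicate 1 of the same group, and its bulge difference was −0.49 without replicate 2 and 1.06 without replicate 1.

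Whether the transgene's effect differed between the populations was tested as an interaction, the genotype difference in CD34-negative cells minus that in bulge cells. By limma 0 of the 10 genes passed, as did 0% of all genes, and 2 of the 10 had an unadjusted p under 0.05, where 4.68% of all genes did. These were Ier2 (1.54, SE 0.43, adjusted p = 1) and Egr2 (−1.25, SE 0.54, adjusted p = 1). The interaction intervals of the other 8 genes included 0.

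Markers were also set against genotype. Of the 10 bulge markers, 9 were lower in Runx1 iTG in the average (median −0.35); 0 passed by limma, and 4 were lower at an unadjusted p under 0.05. The fibroblast markers had the sums given above, higher in Runx1 iTG than in WT bulge cells, with Col1a1 at 7059 in Runx1 iTG and 3928 in WT bulge cells. The 7 immune markers summed to 441 to 599 in Runx1 iTG and 634 to 696 in WT CD34-negative cells, and to 439 to 531 in Runx1 iTG and 707 to 856 in WT bulge cells. The largest part of each was Cd74, which averaged 366 in Runx1 iTG and 496 in WT CD34-negative cells, and 234 and 512 in bulge cells. Group means of the rest lay between 5.10 and 85.6. Of the 7, 4 were lower in Runx1 iTG in CD34-negative cells and 6 in bulge cells, and 0 passed by limma in either. The 6 suprabasal epidermal markers summed to 26061 to 36476 in Runx1 iTG and 43341 to 46197 in WT CD34-negative cells, and to 62742 to 89602 in Runx1 iTG and 85158 to 91133 in WT bulge cells. Endothelial markers summed to at most 303 on any array, and all 5 were below background on both WT CD34-negative arrays. The part of these cells in the genotype differences was not tested.

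Of the genes with several probe sets, Egr2, Egr3 and Btg2 have 2 and Klf6 has 5. The second Egr2 probe set read 1816 and 3086 in Runx1 iTG and 9338 and 3205 in WT CD34-negative cells, and 511 and 421 in Runx1 iTG and 604 and 367 in WT bulge cells. Like the first, it was higher in CD34-negative cells (averaged 2.94, adjusted p = 0.000432) and lower on both Runx1 iTG than on both WT CD34-negative arrays (−1.21, adjusted p = 0.739). The second Btg2 probe set rose in CD34-negative cells by 1.46 averaged (adjusted p = 0.00921) and, unlike the first, passed within Runx1 iTG mice (1.96, adjusted p = 0.0218, against 0.0874 for the first).

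The Egr3 probe sets gave different values between genotypes in bulge cells, a difference that was not tested. The dimmer one read 591 and 677 in Runx1 iTG and 467 and 454 in WT CD34-negative cells, and 30.2 and 28.4 in Runx1 iTG bulge cells, below background, against 101 and 43.1 in WT bulge cells. By group means, this dimmer probe set was at least 2.12-fold lower in Runx1 iTG than in WT bulge cells, without passing (adjusted p = 0.868). By the same measure it was at least 20.3-fold higher in CD34-negative than in bulge cells of Runx1 iTG mice (adjusted p = 0.00115). Each bound is the brighter group's geometric mean over the background level and leaves the spread of its 2 arrays out. The brighter probe set differed by −0.10 between the genotypes in bulge cells (95% interval −0.95 to 0.75). The 5 Klf6 probe sets gave bulge differences of 0.21 to 0.75, all positive, and 1 had an unadjusted p under 0.05.

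**Figure D4:**
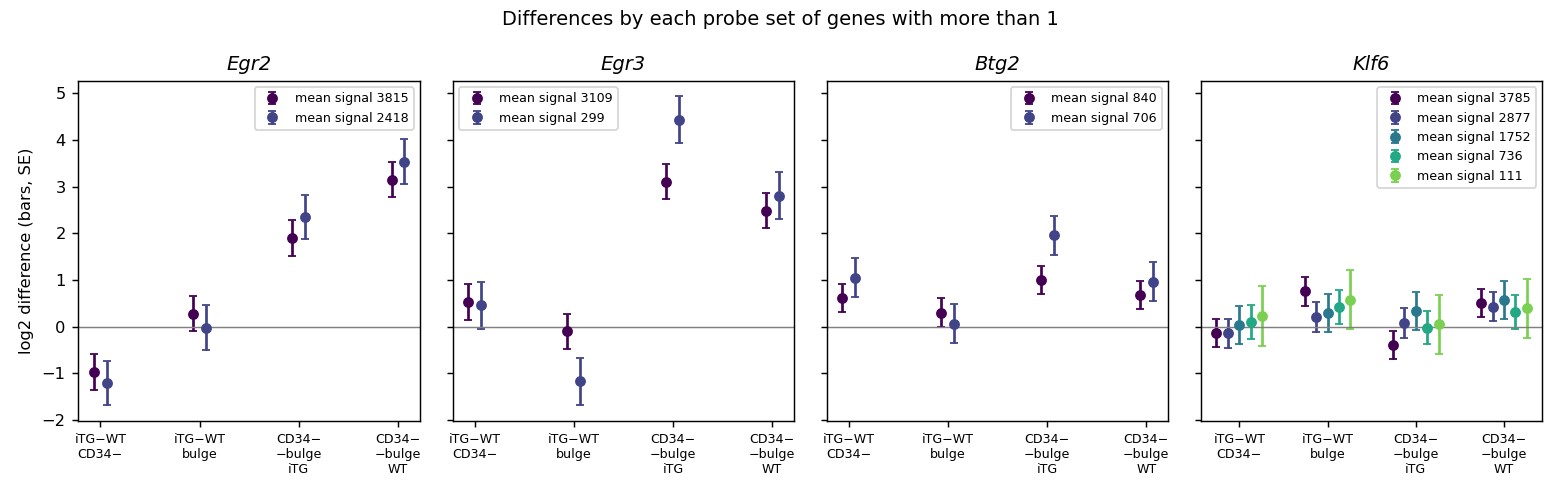
Log2 differences given by each probe set of Egr2, Egr3, Btg2 and Klf6, the genes with more than 1, in 4 comparisons: Runx1 iTG minus WT in CD34-negative and in bulge cells, and CD34-negative minus bulge in Runx1 iTG and in WT mice (bars, SE; colours, probe sets by mean signal). The dimmer Egr3 probe set is below background in Runx1 iTG bulge cells, so its points against that group are fitted values and no bounds; the 5 Klf6 probe sets lie between 0.21 and 0.75 for Runx1 iTG minus WT in bulge cells.

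Egr1, Egr3 and Ier2 were not searched. Of the 7 members searched, both with a CArG box, Egr2 and Zfp36, rose in CD34-negative cells in the average, and their genotype differences had opposite signs there (−0.97 and 0.93). Of the genes with a cyclic AMP response element, Btg2 rose in CD34-negative cells, while Dusp1 was −0.64 (adjusted p = 0.141).

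Other immediate early genes moved in both directions between the populations. Of 34 other immediate early genes measured, 5 rose and 4 fell in CD34-negative cells in the average, with a median of −0.35, where 8.65% of all genes rose and 8.56% fell. Nfkbiz, a regulator of NF-κB, rose by 2.29 (adjusted p = 8.25e-05) and Fos, an AP-1 subunit, by 1.60 (adjusted p = 0.00214). Ccn2, a matricellular protein, differed by −4.16 (adjusted p = 6.11e-05) and Phlda1 by −3.69 (adjusted p = 3.11e-05), both lower in CD34-negative cells. Between genotypes, averaged, 0 of the 34 passed by limma, 9 were higher and 1 lower at an unadjusted p under 0.05, where 4.48% of all genes were higher, and the median was 0.20. Fos read 9402 and 6759 in Runx1 iTG and 2408 and 2967 in WT CD34-negative cells, and 4035 and 2060.0 in Runx1 iTG and 972 and 662 in WT bulge cells, an averaged difference of 1.71 (SE 0.24, adjusted p = 0.0728).

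Upstream, 1 of 18 measured genes of serum response factor, its partners and the MAP kinase route rose in CD34-negative cells and 3 fell. Over all genes 8.65% rose and 8.56% fell. Srf itself fell by 0.74 (adjusted p = 0.0155) and its coactivator Mrtfa by 1.77 (adjusted p = 0.00141), and the kinase Rps6ka3 rose by 1.10 (adjusted p = 0.00231). Between genotypes 0 of the 18 passed (2 were lower at an unadjusted p under 0.05), and Srf differed by −0.74 (adjusted p = 0.305).

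Of 19 MAP kinase phosphatases and feedback inhibitors, 4 rose and 2 fell in CD34-negative cells, where 8.65% of all genes rose and 8.56% fell. The ERK phosphatases Dusp4 and Dusp5 rose by 4.07 and 1.40 (adjusted p = 0.000453 and 0.0164), the receptor inhibitor Lrig1 rose by 1.33 (adjusted p = 0.00065), and the JNK phosphatase Dusp8 fell by 3.16 (adjusted p = 0.00269). Between genotypes, averaged, 0 of the 19 passed. Where 4.48% of all genes were higher at an unadjusted p under 0.05, 4 of the 19 were higher and 2 lower. The largest of these by p was Dusp6, an ERK phosphatase (1.81, SE 0.37, adjusted p = 0.26). Nab1 and Nab2, which bind EGR proteins and repress them, did not pass in either averaged comparison; Nab2 was 0.41 in Runx1 iTG minus WT (adjusted p = 0.62).

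Of 10 measured CCR4-NOT subunits, 0 passed between populations (3 at an unadjusted p under 0.05) and 0 between genotypes (1 at an unadjusted p under 0.05). Of 14 mRNAs known as tristetraprolin targets, 4 rose in CD34-negative cells, where 8.65% of all genes rose. They were Vegfa, Plau, Myc and Cxcl1, by 0.93 to 3.40 (adjusted p = 0.00213 to 0.00916). Over the 14, 6 differences were positive and 8 negative, with a median of −0.59. Between genotypes 0 of the 14 passed and 1 had an unadjusted p under 0.05, Plau at 1.06 (adjusted p = 0.322); the median was −0.33 in bulge cells, 0.36 in CD34-negative cells and −0.37 averaged. Relatives of the members were 23 measured genes of the Egr, Nr4a, Klf, Ier, Zfp36, Btg and Dusp families. Where 8.65% of all genes rose and 8.56% fell in CD34-negative cells, 2 of these relatives rose and 3 fell. Among those that fell were Klf4 (−1.47, adjusted p = 0.00698) and Klf3 (−1.15, adjusted p = 0.00489). Between genotypes, averaged, 0 of the 23 passed. Where 4.48% of all genes were higher at an unadjusted p under 0.05, 4 of the 23 were higher and 1 lower.

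Glucocorticoids are known to induce several members and their relatives, among them Dusp1 and Zfp36. Of 16 glucocorticoid response genes, 1 passed limma's test between genotypes in the average, where 0.044% of all genes did. At an unadjusted p under 0.05, 7 were higher in Runx1 iTG, where 4.48% of all genes were, and 1 was lower. The 1 that passed was Tsc22d3, a leucine zipper protein, which rose by 2.77 (SE 0.21, adjusted p = 0.00305). It read 4445 and 6555 in Runx1 iTG and 880.2 and 1099 in WT CD34-negative cells, and 2983 and 4712 in Runx1 iTG and 424 and 459.5 in WT bulge cells. Every Runx1 iTG array was above every WT array. The list's median was 0.63, and 13 of 16 differences were positive, as were 52.9% over all genes. The part of glucocorticoids in the genotype differences of the members was not tested. Of 13 heat shock and dissociation genes, 0 passed between genotypes (1 at an unadjusted p under 0.05). In CD34-negative cells 4 of the 13 rose and 2 fell, where 8.65% of all genes rose and 8.56% fell. Lists share genes, such as Dusp4 and Klf10.

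The genes most like the members over the 8 arrays, by Pearson correlation with the mean of the 10 standardised log2 profiles, were Ppcdc (r = 0.957), Ccdc71 (r = 0.945), Afap1 (r = 0.939), Stimate (r = 0.929) and Cd164 (r = 0.927), of 10039 genes at or above the median signal. The arrays share the same 4 groups, so these values describe a pattern and carry no p.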

How the data were processed

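Gene expression was measured in 4 groups of sorted skin cells, 2 Affymetrix mouse expression arrays each, from 5 ng of total RNA amplified and biotin-labelled with NuGEN kits, per the labels. The deposited values are linear intensities, 1 per probe set and array; the summarising program was not given in the sources used here. Each deposited array had a mean of 500.0 after trimming 2% at each end.

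From these, 64 control probe sets were removed. Values were scaled to a common 75th percentile, floored at 2.42 (3.48% of values) and put on a log2 scale; background, 31.1, was the 95th percentile of 27 bacterial control probe sets, and 69% to 77% of probe sets lay above it per array. limma 3.58.1 in R 4.3.3 fitted 1 mean per group to 45037 probe sets with an intensity trend in eBayes; p-values were adjusted by Benjamini-Hochberg over all of them, with a threshold of 0.05. By the platform annotation 34945 probe sets had 1 gene, 932 several and 9160 none, and the brightest stands for its gene. Flooring reduces fold changes that involve values under 2.42, and the accuracy of fold changes of other low signals was not tested. Alternatives were other normalization, offset, filter, trend, probe set rule, age, sex or replicate block, and leaving out each array.

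Members and lists were chosen with earlier results of these data known. All members are named, with the 4 genes of smallest p per list as examples. At an unadjusted p under 0.05, the share of all genes that were lower was not counted for the averaged genotype comparison. Between populations no share at that threshold was counted. Counts of list genes given there have no such share to be read against. On simulated data for the bulge genotype comparison (45037 probe sets, 10 sets, 200 changed in each), 5.1% of 2-fold and 62.3% of 4-fold changes were recovered, and 7.54% of calls were false.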

Additional observations from a re-analysis of the deposited data

How the results depend on the processing

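Over 8 fits that each leave out 1 array and 11 other alternatives, 1300 values of single genes were recomputed: 1197 kept their direction and side of the threshold, 48 lost and 9 gained the threshold, and 46 turned their sign, all of them values that had not passed. Differences could not move with the median filter, 1 row per gene, no intensity trend, a block or only the groups compared. Nor could they without an array outside the comparison. There only the p could change, and the replicate and sex blocks were the same fit. Of the 9 gained, 7 were Ier3 between populations in the average, given above, 1 was Zfp36 averaged between genotypes and 1 was Btg2 between populations in Runx1 iTG, with the mean of its probe sets (adjusted p = 0.0254). The number of the 10 genes that passed between Runx1 iTG and WT was 0 throughout in bulge and in CD34-negative cells; averaged, it was 1 (Zfp36) with only probe sets at or above the median signal. Between CD34-negative and bulge cells it was 0 in WT and 2 in Runx1 iTG without the intensity trend, and 0 in Runx1 iTG and 3 averaged with day 20 arrays alone, where the Runx1 iTG median was 1.25; fewer arrays enter that fit, and a lone array is assumed to vary like the other groups. With 50 added before the log, the median filter, 1 row per gene or the mean of probe sets, 7 passed averaged, the seventh being Ier3, lower. Leaving out 1 array gave 1 to 3 in WT, 2 to 4 in Runx1 iTG and 4 to 6 averaged, and medians of 0.38 to 1.30 in Runx1 iTG; the genotype median in bulge cells was 0.28 to 0.73 and the interaction median −0.34 to 0.22.

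Signs that turned in other alternatives were, with day 20 arrays alone, 0.44 for Egr3, −0.49 for Nr4a1, −0.084 for Btg2 and −0.46 for Ier3 between genotypes in bulge cells, −0.046 for Klf6 averaged, and −0.22 for Egr1, −0.067 for Egr3 and 0.15 for Zfp36 in the interaction. With the mean of a gene's probe sets they were 0.017 for Klf6 between genotypes in CD34-negative cells, −0.073 for Egr3 averaged and 0.0076 for Klf6 between populations in Runx1 iTG. With quantile normalization they were 0.060 for Nr4a1 between populations in WT, −0.10 for Klf6 averaged and −0.011 for the Ier3 interaction. Leaving out 1 array turned the sign of further values. Between genotypes, those ranges were, in bulge cells, −0.0054 to 0.56 for Egr2, −0.64 to 0.44 for Egr3, −0.49 to 1.06 for Nr4a1, −0.34 to 0.15 for Ier2, −0.084 to 0.69 for Btg2 and −0.46 to 0.78 for Ier3; in CD34-negative cells, −0.54 to 0.26 for Klf6 and −0.45 to 0.81 for Ier3; and averaged, −0.059 to 0.48 for Egr3 and −0.15 to 0.48 for Ier3. Between populations they were −0.51 to 0.23 for Nr4a1 and −0.62 to 0.14 for Dusp1 in WT, −0.10 to 1.45 for Nr4a1 and −0.79 to 0.0099 for Klf6 in Runx1 iTG, and −0.12 to 0.65 for Nr4a1 and −0.14 to 0.26 for Klf6 averaged. In the interaction they were −0.11 to 0.42 for Egr1, −0.073 to 0.70 for Btg2 and −0.61 to 0.65 for Ier3. The cause of these changes was not tested.

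Same-numbered samples did not deviate together over the 18193 genes, each by its brightest probe set (correlations −0.022 to 0.087 over 6 pairs of groups, 0 above 0.1). The numbers were not used to pair the samples. Whether same-numbered bulge and CD34-negative samples of a genotype came from the same mice cannot be told from these correlations. They cover all genes, dim ones included, and such samples share sex and age. With the replicate number as a block, which is also the sex of the mice, 5 genes passed between populations in the average, and the adjusted p of Zfp36 was 0.0566; the genotype counts stayed at 0.

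Of the 45037 probe sets in the main fit, 2 passed for Runx1 iTG against WT in bulge cells, 4 in CD34-negative cells and 17 averaged. For CD34-negative against bulge cells 3142 passed in Runx1 iTG, 2078 in WT and 6316 averaged. Over the alternatives with 2 arrays in each group compared, the genotype numbers were 0 to 14, 0 to 20 and 1 to 67, in the same order. Those between populations were 861 to 3816, 557 to 2742 and 3251 to 6713. These alternatives did not all test as many rows. The median filter kept the brighter probe sets alone, and others had 1 row per gene. The upper ends 14, 20, 67, 3816 and 2742 came from the median filter, so the ranges mix numbers out of unlike totals.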
